A study of Danio rerio with 6 samples.

Results

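The transcripts described here are the assembled long non-coding RNAs (lncRNAs, RNAs without a protein product) that lie antisense to an mRNA exon in zebrafish embryos. A transcript of the lncRNA table carrying an assembly identifier (TCONS) was taken as a member when at least 1 base of one of its exons lay, on the opposite strand, on an exon of a gene that is in the gene table and not in the lncRNA table. Such genes are called mRNAs below, and the mRNA with the longest antisense exon overlap was the partner of each member. The rule found 834 members among 5936 assembled transcripts and 9029 lncRNAs in all. They formed 677 loci, with transcripts on 1 strand put together when their exons overlapped, and they had 636 partner mRNAs, which is 2.35% of 27018.

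RNA came from whole wild-type AB embryos taken 10 (T1), 24 (T2) or 36 (T3) hours post fertilization (hpf), and each stage had 2 libraries. Embryos of each stage were pooled and split at random into both groups, so p-values reflect only how far these libraries differ, and that spread may be technical. Libraries were made with a stranded kit after removal of ribosomal RNA, and the levels are RPKM, reads scaled by exon length and by library depth. The sources used here do not say if counting took strand into account, and without strand the reads of a transcript and of its antisense partner cannot be told apart. In whole embryos, fewer cells of a type and less RNA per cell cannot be told apart either.

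Natural antisense transcripts are copied from the strand opposite to another gene. Some are known to lower the output of the partner gene through chromatin, colliding polymerases or pairing of the RNAs, others rise and fall with it from a shared promoter region, and many have no known function. Arrangements are named here by the part of the mRNA that the span of the member covers. Covering only the start is head-to-head, only the end tail-to-tail, both around and neither within. The 5' end of a head-to-head member may lie far inside the mRNA span.

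The most frequent arrangement was a member inside the span of its partner. Of the 834, 363 (43.5%) lay within the mRNA span, 203 (24.3%) were tail-to-tail, 197 (23.6%) were head-to-head and 71 (8.51%) lay around the partner. The antisense exon overlap had a median of 394 bases, from 5 to 6270, and covered a median of 43.5% of the exonic bases of the member. For 147 members the overlap was 90% or more, and for 106 of these every exonic base lay on a partner exon. At the other end, 107 members had less than 10% of their bases on partner exons, and 38 overlapped by fewer than 50 bases. Of the 770 members whose partner has 2 or more exon blocks, 393 reached the last block, 237 the first, and 176 lay on inner blocks only.

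None of the members had a single exon, 598 had 2 exons and 177 had 3. An intron's splice signals read differently on each strand, so the intron ends of an antisense pair are not expected to coincide. Yet 214 members had at least 1 intron end equal to an exon end of the partner, 50 shared both ends of an intron and 24 shared both ends of every intron. The strand of the members came from the files, and its assignment was not tested. The members were unevenly spread over the strands, with 561 (67.3%) on the plus strand, against 2407 of 5102 (47.2%) of the other assembled transcripts and 1548 of 3093 (50%) of the annotated lncRNAs. Chromosome 4 held 158 members among its 533 assembled transcripts (29.6%), more than any of the other 24 chromosomes, where the share ran between 5.17% and 21.5%. By the symbol annotation of RefSeq, 499 partners were protein-coding genes and 19 were miRNA genes, while 114 symbols found no match.

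Members were expressed at low levels. Taking stages in order, the median over members of the stage mean was 1.31, 1.21 and 1.17 RPKM, and for their partners it was 3.78, 4.24 and 3.86 RPKM. The member averaged at least 1 RPKM over the 6 libraries for 515 and at least 10 RPKM for 29. The median member had 34.7% of the level of its partner, and 153 members lay above it. A library held 43611332 to 51846237 reads in genes. For each 100 of these, members had 0.361 to 0.393 reads in the lncRNA table. This is not a share, since members are not in the gene table. A member had a median of 66.5 to 79.4 reads, and 3 reads corresponded to 0.0495 to 0.0588 RPKM for a transcript of median length. Such floors cover counting error only. The stages were recognisable in the gene table, where the mesoderm gene tbx16 had 11.1 and 15.4 RPKM in the T1 libraries, 1.16 and 1.03 RPKM in those of T2 and 0.135 and 0.167 RPKM in those of T3. The T1 libraries differed most from each other, with a median absolute log2 difference of 0.231 between both T1 libraries over members of at least 1 RPKM, against 0.129 for T2 and 0.125 for T3. The recovered reads of members were whole numbers for 11.2% of values above 0 (within 0.001 read), against 34.0% for the other assembled transcripts and 100% for the annotated lncRNAs, and all were whole hundredths. Why they were not whole was not tested.

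The first question was which members changed between stages. A call needed a limma adjusted p under 0.05 and an absolute log2 fold change above 1 of log2(RPKM + 0.5), and this added constant makes changes of weakly expressed transcripts look smaller than they were. For T2 against T1, 120 of 831 members tested were called (14.4%), 84 higher and 36 lower at T2, and 12.8% of all lncRNAs were called in this comparison (9.8% higher, 3.0% lower). For T3 against T2, 43 of 832 were called (5.17%), 19 higher and 24 lower at T3, against 7.8% of all lncRNAs (3.96% higher, 3.84% lower). For T3 against T1, 217 of 834 were called (26.0%), 124 higher and 93 lower at T3, against 25.8% of all lncRNAs (15.7% higher, 10.0% lower). Differences between these shares of members and of all lncRNAs were not tested. In at least 1 comparison 237 members of 188 loci were called, and members of a locus share reads. The balance of directions moved with the scaling of libraries: quantile normalization gave 63 higher and 58 lower for T2 against T1, 107 and 123 for T3 against T1, and median centring gave 28 and 17 for T3 against T2. With either T2 library left out no member passed the adjusted threshold for T2 against T1 in limma, although 115 to 141 passed at an unadjusted p under 0.05. With either T3 library left out 19 were called for T3 against T1, and no called member changed sign in any of these fits.

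The second question was whether members and partners moved together. No pair was called in opposite directions in any comparison, and such pairs were also few among the other assembled transcripts and their nearest mRNA. There they were 8 of 704 called transcripts for T2 against T1, 7 of 423 for T3 against T2 and 59 of 1386 for T3 against T1. Where the span lay over an opposite-strand mRNA without antisense exon overlap, they were 2 of 352, 1 of 175 and 10 of 707. Differences from the members were not tested. For T2 against T1, 93 of the 117 called members with a tested partner had a partner called in the same direction and 0 had one called in the opposite direction, where 16.3% of all mRNAs were called. For T3 against T2 these counts were 28 of 43 and 0, with 6.14% of all mRNAs called, and for T3 against T1 they were 180 of 216 and 0, with 25.9% of all mRNAs called. At an unadjusted p under 0.05 in limma, with the same fold change, pairs in opposite directions also numbered 0, 0 and 0. Whether or not the partner was called, the change of the mRNA had the sign of the member in 116 of 117, 43 of 43 and 214 of 216 called members. The exceptions were the transcript on srfb for T2 against T1, and those on dkey-71l4.3 and 165507 for T3 against T1, the last 2 named after their values were seen. Of called transcripts over an opposite-strand mRNA without antisense exon overlap, 328 of 352, 157 of 175 and 666 of 707 shared the sign of their mRNA. Of those beside their nearest mRNA, 175 of 225, 109 of 162 and 288 of 405 did. The stage of highest mean level was the same for the member and its partner in 669 of 834 pairs, with 363 highest at T1, 113 at T2 and 193 at T3. No such count is given here for the other assembled transcripts, and pairs of a locus share reads.

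**Figure D1:**
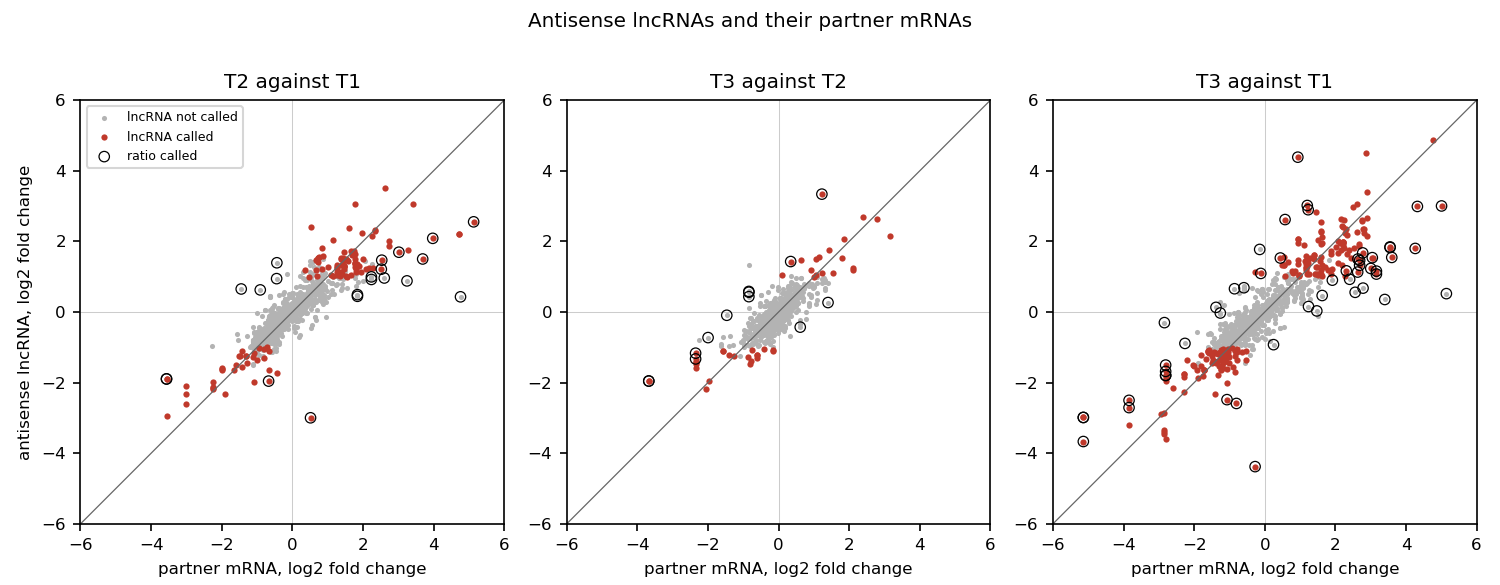
Each point is 1 antisense lncRNA, with the log2 fold change of its partner mRNA on the x axis and its own on the y axis, in 1 panel for each pair of stages. Red points are called lncRNAs, rings mark pairs whose ratio was called, and the diagonal marks equal change. Called lncRNAs fill the upper right and lower left of each panel, and few points, such as the transcript next to srfb at the bottom, leave the diagonal by a wide margin.

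Across pairs, the log2 changes of member and partner correlated with Pearson's r of 0.86 for T2 against T1 (827 pairs), 0.81 for T3 against T2 (831 pairs) and 0.87 for T3 against T1 (833 pairs). These are descriptions, since all pairs come from the same 4 libraries and some share a locus or an mRNA. With overlap of 90% or more r was 0.96, 0.93 and 0.96, at 50 to 90% it was 0.88, 0.78 and 0.87, at 10 to 50% it was 0.84, 0.77 and 0.85, and under 10% it was 0.73, 0.84 and 0.83, so the lower classes did not follow the overlap for T3 against T2. The median absolute difference between the log2 changes of member and partner was 0.19, 0.16 and 0.26, against 0.44, 0.31 and 0.55 for the other assembled transcripts and their nearest mRNA. Among these, transcripts over an opposite-strand mRNA without antisense exon overlap had 0.35, 0.25 and 0.44, with r of 0.69, 0.72 and 0.73. By arrangement r lay between 0.81 (tail-to-tail) and 0.88 (head-to-head) for T2 against T1, between 0.71 (head-to-head) and 0.91 (around) for T3 against T2, and between 0.83 (tail-to-tail) and 0.89 (around) for T3 against T1, with no arrangement first or last throughout.

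The other assembled transcripts were grouped by the strand of the mRNA their span lay over. Among those whose span lay over an mRNA on the opposite strand with no antisense exon overlap, 260 of 352 called transcripts (73.9%) had the mRNA called in the same direction for T2 against T1, 95 of 175 (54.3%) for T3 against T2 and 543 of 707 (76.8%) for T3 against T1. Among those over an mRNA on the same strand, these were 10 of 127 (7.87%), 5 of 86 (5.81%) and 30 of 274 (10.9%). The members had 79.5%, 65.1% and 83.3%. Differences in these shares were not tested, and the part that strand assignment and counting play in them was not tested.

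**Figure D2:**
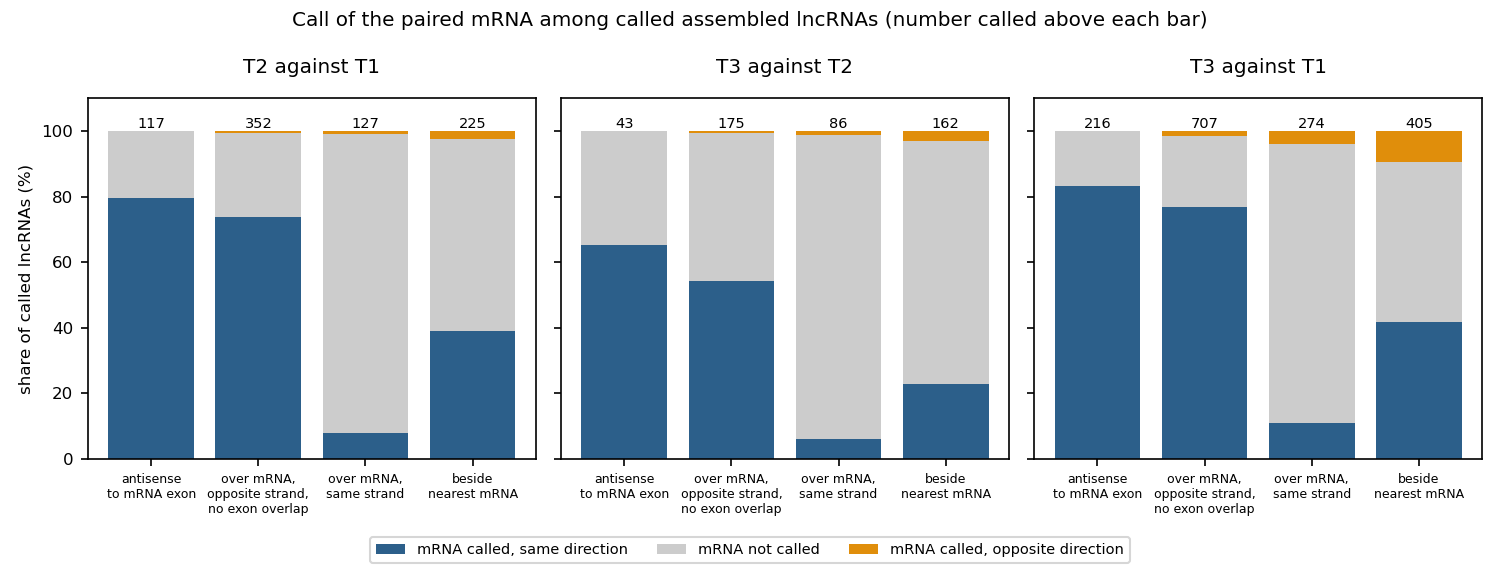
Bars give, for each pair of stages, the share in percent of called assembled lncRNAs whose mRNA was called in the same direction (blue), not called (grey) or called in the opposite direction (orange), and the number above a bar is the number of called lncRNAs. The antisense set is leftmost and has no orange segment, and transcripts over an opposite-strand mRNA without exon overlap have only a thin one. Transcripts over an mRNA on the same strand have the shortest blue segment.

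Some pairs kept a nearly fixed ratio of levels in all 6 libraries. For the 189 members with at least 100 reads in every library on both sides of the pair, the SD of the log2 ratio over the 6 libraries had a median of 0.131. In 65 of them (34.4%) it was below the SD that counting alone would give separate sets of reads of this size. That SD treats recovered reads as whole counts, though few member values were whole numbers, and the effect of this was not tested. With separate reads and a constant ratio, an SD over 6 libraries also often falls below it by sampling. How often was not worked out, so the count alone does not show a ratio tighter than counting. The share of pairs below the counting SD was 71.9% (23 of 32) with overlap of 90% or more, 52.9% (18 of 34) at 50 to 90%, 24.4% (21 of 86) at 10 to 50% and 8.11% (3 of 37) under 10%. In the other assembled transcripts it was 3.93% of 483 over an mRNA on the opposite strand and 8.39% of 143 beside their nearest mRNA. Differences between the 2 libraries of a stage were shared as well, where member and partner correlated with r of 0.64, 0.51 and 0.32 in the order of stages over 278 pairs of at least 1 RPKM, against 0.27, -0.01 and -0.03 over 861 transcripts above an mRNA on the opposite strand without exon overlap.

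**Figure D3:**
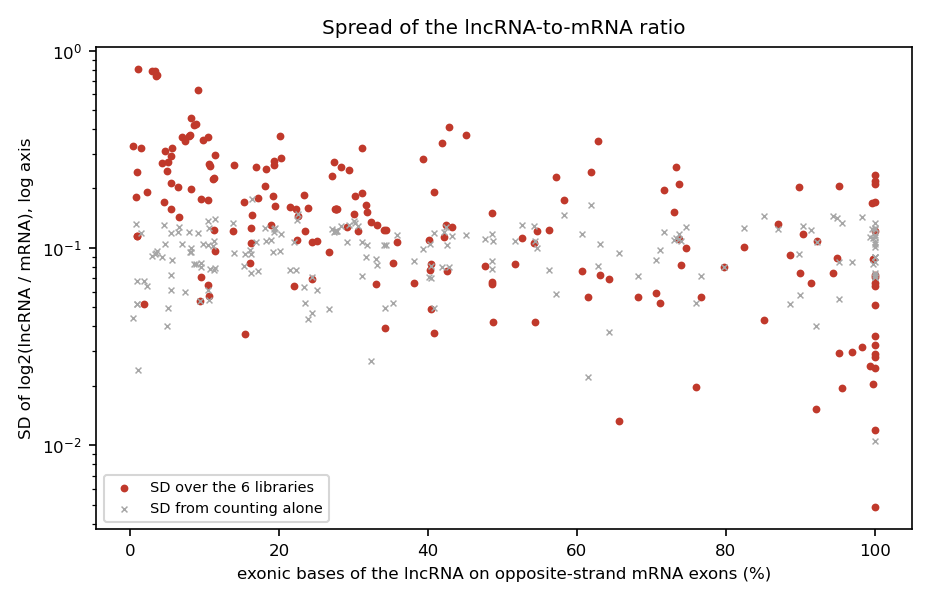
Each red point is 1 of the 189 antisense lncRNAs with at least 100 reads in every library, by the share of its exonic bases on partner exons (x axis, percent) and the SD of log2(lncRNA / mRNA) over the 6 libraries (y axis, log scale), and each grey cross is the SD that counting alone would give the same pair. Red points fall below the crosses mostly at the right of the plot, where overlap is near 100%.

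The transcript on rab35a, a small GTPase of endosome recycling, had the steadiest ratio. TCONS_00025870 lies on chromosome 5 of GRCz11 (chr5:2652071-2676351, plus strand), and its 5 exons fall wholly on the 5 exon blocks of rab35a with all 4 introns shared. Its level was 94.2%, 94.2%, 94.2%, 94.9%, 94.6% and 94.8% of the mRNA in the 2 libraries of T1, T2 and T3, with an SD of the log2 ratio of 0.00485 where counting alone gives 0.0746. It was chosen after its values were seen. Its strand was taken from the files, and whether it is truly antisense was not tested.

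The transcript on igf2bp1, which encodes an mRNA-binding protein of early development, was among the 6 most abundant members. TCONS_00009813 (chr3:23519695-23524605, plus strand) lies wholly on the last of 16 exon blocks. It had 145 and 116 RPKM at T1, 114 and 112 RPKM at T2 and 82.4 and 79.8 RPKM at T3, and the mRNA had 329 and 269, 261 and 257, and 189 and 185 RPKM. The level was 43.0% to 44.0% of the mRNA in every library, and no change of the ratio was called. TCONS_00004195 on znfl2a had 125 and 102 RPKM at T1, 35.9 and 35.9 RPKM at T2 and 16 and 13.7 RPKM at T3, always 47.9% to 49.9% of the mRNA. It fell with its partner in each comparison, by 2.89 on the log2 scale for T3 against T1 (SE 0.22, limma adjusted p = 0.0025), where the mRNA fell by 2.94.

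Members with nearly full overlap on an abundant mRNA had widely different shares of its level. TCONS_00007417 has 1546 of its 1552 exonic bases on the last exon block of asph, the gene of an aspartyl hydroxylase, and averaged 1.92 RPKM against 336 RPKM for the mRNA, which is 0.573%. TCONS_00094446 lies wholly on the last exon block of baz2a, a chromatin remodelling subunit, and averaged 0.573 RPKM against 50.4 RPKM, or 1.14%. TCONS_00009716 on ubtf, a factor of ribosomal RNA transcription, averaged 6.97 RPKM against 53.7 RPKM, or 13.0%. In the 6 members with at least 90% overlap on the most abundant mRNAs, the share ran between 0.573% and 63.8%. With 32.4% of its bases on the last exon of the chaperone gene hsp90ab1, the abundant TCONS_00086532 averaged 39.0 RPKM, or 1.40% of its partner.

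The 2 largest increases for T3 against T1 were on miR-9 genes. miR-9 is a microRNA of neural progenitors, and 3 of its genes had a member. TCONS_00035498 (chr7:14354273-14381483, plus strand, 5 exons) covers all 88 bases of mir9-6. It had 0.818 and 0.442 RPKM at T1, 4.52 and 5.04 RPKM at T2 and 35 and 29.6 RPKM at T3, and mir9-6 had 0.521 and 0.753, 2.55 and 5.89, and 33.2 and 27.2 RPKM. No values of different stages overlapped. For T3 against T1 the member rose by 4.88 on the log2 scale (SE 0.24, limma adjusted p = 0.0012) and mir9-6 by 4.75 (SE 0.17, adjusted p = 0.00023). TCONS_00071499 on mir9-1 (chr16:29211336-29226121, minus strand) had 1.1 and 0.442 RPKM at T1, 4.21 and 3.52 RPKM at T2 and 30 and 25 RPKM at T3. TCONS_00049341 on mir9-2 had 0.0672 and 0.031, 0.461 and 0.503, and 3.73 and 4.07 RPKM. Both were called higher for T3 against T2, by 2.68 and 2.16. A miRNA gene is short, and mir9-6 rested on 2, 3, 11, 25, 144 and 124 reads in the 6 libraries. Since the member covers the whole of mir9-6 and the strand of counting is unknown, these may be reads of the member, which was not tested. Of all 23 members on miRNA genes, 20 spanned the miRNA gene.

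In all, 23 members lay on 19 miRNA genes, a group formed after the values were seen. For T2 against T1 7 of them were higher and 0 lower, for T3 against T2 4 and 0, and for T3 against T1 8 and 0, with medians of 0.51, 0.39 and 0.90 on the log2 scale where all lncRNAs had 0.08, -0.08 and 0.00. Among all lncRNAs 9.8%, 3.96% and 15.7% were called higher. Quantile normalization gave 3 higher and 2 lower for T3 against T2. The called members lay on mir9-1, mir9-2, mir9-6, mir137-1, mir124-5, mir22a, mir199-1a, mir144, mir133b and mir133a-2, which include miRNAs of neurons (miR-124, miR-137), red cells (miR-144) and muscle (miR-133). The one antisense to mir133a-2, TCONS_00094465, had 0.00661 and 0 RPKM at T1, 0.87 and 0.982 RPKM at T2 and 0.683 and 0.683 RPKM at T3.

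On the list of neuron, synapse and channel genes, 12 of 20 members were called higher at T3 than at T1. This list, picked by the start of gene symbols, had its 20 members on 19 of its 444 mRNAs. For T3 against T1 12 were higher and 0 lower with a median of 1.27, for T2 against T1 4 and 0 (median 0.80), and for T3 against T2 2 and 0 (median 0.37). Over all lncRNAs the share called higher was 15.7%, 9.8% and 3.96% in these comparisons, with medians of 0.00, 0.08 and -0.08. Quantile normalization gave 11 higher and 2 lower for T3 against T1 and 2 higher and 1 lower for T2 against T1, and median centring gave 4 higher for T3 against T2. TCONS_00051246 on syn2b, a synaptic vesicle protein, had 0.158 and 0.0762 RPKM at T1, 0.74 and 1.66 RPKM at T2 and 4.42 and 3.77 RPKM at T3. TCONS_00001319 on grin2bb, an NMDA receptor subunit, had 0.234 and 0.16, 0.673 and 0.812, and 2.51 and 2.17 RPKM. TCONS_00061623 on the protocadherin pcdh2g16 had 0.304 and 0.181, 1.52 and 1.29, and 2.31 and 2.43 RPKM. These changed for T3 against T1 by 2.90, 2.03 and 1.96 (limma adjusted p = 0.0022, 0.004 and 0.0045), and all 3 partners rose. Of the 12 called, 2 of them on pcdh2ab5, all but the one on kcnj1a.2 had a partner called higher too. The 3 lowest changes in the list belonged to members on the guidance genes efna5a, epha2b and ephb3, between -0.97 and -0.81, none called.

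Hox factors pattern the body axis, and 6 members lay on 5 genes of the homeobox list. Of these 3 were lower and 0 higher for T2 against T1 (median -1.06), 1 and 0 for T3 against T2 (median -0.47), and 3 and 0 for T3 against T1 (median -1.37), where 3.0%, 3.84% and 10.0% of all lncRNAs were called lower. Quantile normalization gave 4 lower for T3 against T1. TCONS_00012418 (chr3:23694148-23695770, minus strand) lies within hoxb7a with 269 bases on its last exon. It had 49 and 60.2 RPKM at T1, 10.5 and 10.3 RPKM at T2 and 4.46 and 3.58 RPKM at T3, against 26.6 and 30.6, 7.43 and 6.95, and 3.95 and 3.5 RPKM of the mRNA. The member lay above the mRNA in all 6 libraries, by little at T3. It fell by 3.61 for T3 against T1 (SE 0.21, adjusted p = 0.0014) while the mRNA fell by 2.78 (SE 0.13, adjusted p = 0.00035). TCONS_00097205 on hoxc3a had 3.27 and 3.68, 0.701 and 0.844, and 0.244 and 0.35 RPKM, and TCONS_00052847 on hoxc6b had 7.04 and 8.29, 2.7 and 2.28, and 1.68 and 1.93 RPKM. Both fell for T3 against T1, by 2.32 and 1.82. TCONS_00081621 on hoxa5a held 45.0% to 46.8% of the mRNA in all libraries and was not called. Neither was TCONS_00097213, another member on hoxc3a, at 26.5% to 39.4% of the mRNA.

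The other lists had few members. Of all lncRNAs 12.8% were called for T2 against T1, 7.8% for T3 against T2 and 25.8% for T3 against T1. Lists this small cannot show a difference from those shares. TCONS_00029724, the only one on a Notch list gene, lies wholly on the last exon of dlb, a Delta ligand. It had 3.18 and 2.26 RPKM at T1, 8.61 and 8.44 RPKM at T2 and 14.5 and 14.4 RPKM at T3, and dlb had 6.41 and 4.48, 16.2 and 16.2, and 27.7 and 27.8 RPKM. It rose with dlb by 2.23 for T3 against T1 (SE 0.21, adjusted p = 0.0038), and dlb rose by 2.27. On genes of Wnt, BMP, FGF, Hedgehog and retinoic acid signaling 1 of 5 members was called in any comparison, TCONS_00054258 on the Hedgehog factor gli2b, which fell by 1.14 for T3 against T1, and median centring gave 1 higher for T2 against T1 and 1 higher for T3 against T1. No member was called among 5 on forkhead, Sox, GATA, T-box and Klf factors, 8 on matrix genes, 5 on chromatin and RNA-processing genes and 1 on a translation gene in limma's adjusted test, and 0 of them passed an unadjusted p under 0.05 with the same fold change. Quantile normalization gave 2 lower on matrix genes for T2 against T1 and the translation member lower for T3 against T1. The muscle list of 102 mRNAs had 0 members.

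Other large changes followed the partner as well. TCONS_00046330, head-to-head with myo16, an unconventional myosin of the nervous system in mammals, had 0.0537 and 0.0345 RPKM at T1, 5.65 and 5.8 RPKM at T2 and 3.85 and 4.16 RPKM at T3, and myo16 had 0.22 and 0.0844, 3.4 and 3.52, and 3.44 and 3.43 RPKM. At T2 and T3 this member lay above its mRNA. It rose by 3.52 for T2 against T1 (SE 0.20, adjusted p = 0.0096), and myo16 rose by 2.61. TCONS_00041925 (chr8:52882872-52885007, plus strand) lies wholly on the last exon of nr6a1a, an orphan nuclear receptor. It had 5.66 and 11.9 RPKM at T1, 0.587 and 0.678 RPKM at T2 and 0.174 and 0.202 RPKM at T3, and nr6a1a had 54.3 and 94.2, 5.9 and 5.31, and 1.64 and 1.46 RPKM. With 0.5 RPKM added, the member fell by 3.67 for T3 against T1 and the mRNA by 5.14, and their ratio rose by 1.47 (SE 0.20, limma adjusted p = 0.0089). The member at T3 lay below the added 0.5 RPKM, and in RPKM alone both fell by a similar factor. TCONS_00079941 on eppk1, a cytoskeletal linker of epithelia, had 9.64 and 7.15, 0.882 and 1.02, and 0.363 and 0.563 RPKM and fell by 3.20 for T3 against T1 with its partner, which fell by 3.84.

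Some pairs peaked together at T2. TCONS_00011677 has 3115 bases on the last exon of the globin gene cygb1. It had 1.35 and 0.468 RPKM at T1, 11.4 and 9.92 RPKM at T2 and 2.37 and 2.37 RPKM at T3, and cygb1 had 3.93 and 1.35, 31.6 and 28.5, and 7.05 and 7.4 RPKM. The low value in the second T1 library was shared by both. TCONS_00077750 on pygo1, a Wnt coactivator, had 0.0949 and 0.21, 1.98 and 2.81, and 0.0902 and 0.177 RPKM, and pygo1 had 0.493 and 0.458, 4.35 and 3.9, and 0.608 and 0.608 RPKM. Both members were among 5 called higher for T2 against T1 and lower for T3 against T2.

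**Figure D4:**
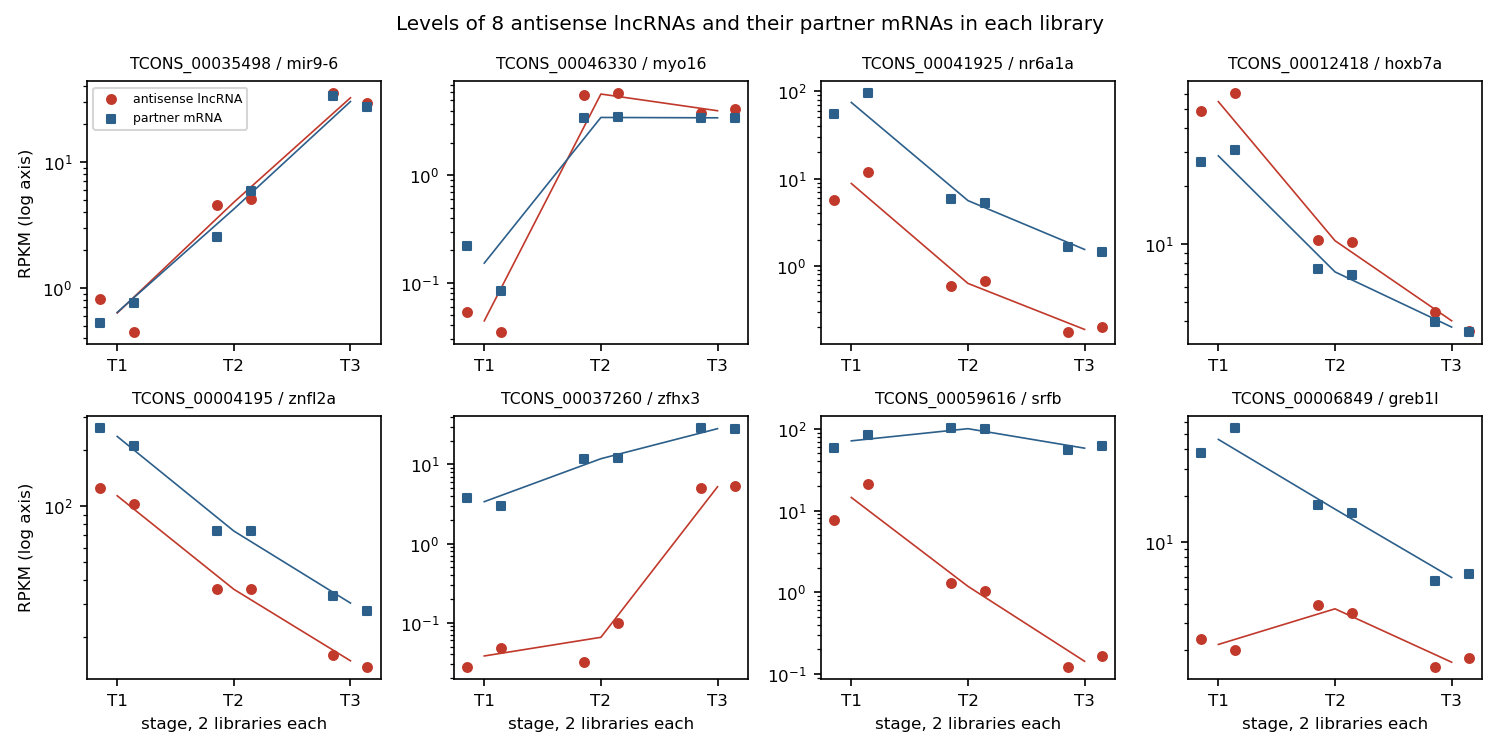
Levels in RPKM (log axis) of 8 antisense lncRNAs (red circles) and their partner mRNAs (blue squares) in the 2 libraries of T1, T2 and T3, with lines through the stage means. Both lines of the mir9-6, nr6a1a, hoxb7a and znfl2a pairs go the same way at each step, while at T2 the mean is lower than at T1 for the transcript on srfb and higher for srfb, higher for the transcript on greb1l and lower for greb1l, and the zfhx3 transcript stays under 0.1 RPKM until T3.

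The third question was where the ratio of member to partner changed, with 0.5 RPKM added to each level. Where a member lay near or below this constant, a ratio could be called although the ratio in RPKM alone stayed similar, as for nr6a1a. How many of the calls below rest on the constant was not tested. For T2 against T1 the ratio was called in 21 of 827 pairs (2.54%), 6 up and 15 down, where 8.78% of all lncRNA and mRNA pairs were called (3.07% up, 5.72% down). For T3 against T2 these were 13 of 831 (1.56%), 11 up and 2 down, against 6.14% (2.29% up, 3.85% down). Between T3 and T1 they were 51 of 833 (6.12%), 22 up and 29 down, against 20.6% (7.57% up, 13.0% down). Where the span lay over an opposite-strand mRNA without antisense exon overlap, 6.62%, 2.86% and 14.6% of ratios were called in these comparisons. The differences between these shares were not tested. Quantile normalization gave 32 up and 26 down for T3 against T1. With either T2 library left out no ratio of a member passed for T2 against T1 in limma, and 17 to 22 passed at an unadjusted p under 0.05.

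The transcript beside srfb, a paralog of serum response factor, had the largest change of ratio among the pairs the naming rule picked. TCONS_00059616 (chr13:51886963-51889067, plus strand) is tail-to-tail with srfb and overlaps it by 26 bases, 1.38% of its exons. It had 7.73 and 21.2 RPKM at T1, 1.31 and 1.05 RPKM at T2 and 0.121 and 0.164 RPKM at T3, and srfb had 58.6 and 84.2, 102 and 99.5, and 54.9 and 61.3 RPKM. Values of the member did not overlap between stages, whereas those of srfb at T1 and T3 did. The ratio fell by 3.51 for T2 against T1 (SE 0.34, limma adjusted p = 0.014) and by 4.10 for T3 against T1 (SE 0.34, adjusted p = 0.003). It was also the 1 called member of T2 against T1 whose mRNA change had the other sign, 0.52 (SE 0.19, adjusted p = 0.088).

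TCONS_00037260 (chr7:68481109-68483099, plus strand) lies within zfhx3, a zinc finger and homeobox factor, with 394 bases on exon block 6 of 18. It had 0.0275 and 0.0485 RPKM at T1, 0.0321 and 0.0987 RPKM at T2 and 5.07 and 5.35 RPKM at T3. zfhx3 had 3.78 and 2.97, 11.5 and 12, and 28.6 and 27.9 RPKM, a steady increase. For T3 against T2 the ratio rose by 2.11 (SE 0.15, adjusted p = 0.0036), the member by 3.34 and the mRNA by 1.23.

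TCONS_00006849 (chr2:11685774-11736041, minus strand) is head-to-head with greb1l, a gene of kidney development in mammals. It overlaps greb1l by 138 bases on the first exon block, and its 5' end lies far inside the greb1l span. Its levels were 2.38 and 2 RPKM at T1, 3.92 and 3.52 RPKM at T2 and 1.56 and 1.8 RPKM at T3. greb1l had 37.9 and 54.7, 17.3 and 15.5, and 5.64 and 6.21 RPKM and fell in every comparison, while the member was not called in any. The ratio rose by 2.10 for T2 against T1 (SE 0.29, adjusted p = 0.025) and by 2.54 for T3 against T1 (SE 0.29, adjusted p = 0.0061). TCONS_00051310, which overlaps the last exon of the splicing factor gene hnrnpa1a by 11 bases, had 53 and 75.2 RPKM at T1, 93 and 103 RPKM at T2 and 98.2 and 102 RPKM at T3. hnrnpa1a had 740 and 804, 406 and 415, and 467 and 387 RPKM, and the ratio rose by 1.53 for T2 against T1 (SE 0.22, adjusted p = 0.025).

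In other pairs the partner changed more than the member on the log2(RPKM + 0.5) scale. TCONS_00095818 has 8 exons, spans the gene listed as 101853 and shares both ends of 5 of its 7 introns with it. It had 2.06 and 1.64 RPKM at T1, 12.9 and 13.6 RPKM at T2 and 7.71 and 7.6 RPKM at T3, and the mRNA had 2.12 and 1.31, 76.5 and 75.4, and 40.9 and 41.6 RPKM. The ratio fell by 2.58 for T2 against T1 (SE 0.20, adjusted p = 0.01). TCONS_00080806 on fhod3a, a formin that organizes actin in muscle, had 0 and 0.0483, 1.94 and 1.52, and 0.905 and 1.15 RPKM, with 0.512 and 0.772, 17.5 and 17.2, and 9.17 and 8.57 RPKM for fhod3a. With 0.5 RPKM added, the ratio of this pair fell by 1.89 for T2 against T1. The member at T1 lay below the added 0.5 RPKM, with 0 RPKM in the first library. Its rise in RPKM alone can therefore not be set as a factor against that of fhod3a. TCONS_00061343, tail-to-tail with LOC100149084, had 0.0734 and 0.0268, 1.98 and 2.1, and 0.156 and 0.154 RPKM, against 3.89 and 1.04, 74 and 61.7, and 4.83 and 4.82 RPKM of its partner. With 0.5 RPKM added, its ratio rose by 1.72 for T3 against T2 (SE 0.17, limma adjusted p = 0.0077), where the mRNA fell by 3.68 and the member by 1.96. The member at T3 lay below the added 0.5 RPKM, and in RPKM alone both fell by a similar factor.

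The largest fall of a ratio was at lama2, a laminin chain of muscle basement membrane, in a member named after its values were seen. TCONS_00084837 had 0.20 and 0.182 RPKM at T1, 0.398 and 0.465 RPKM at T2 and 0.438 and 0.547 RPKM at T3. lama2 had 0.191 and 0.145, 17.5 and 17.7, and 21.9 and 24.3 RPKM. With 0.5 RPKM added, the ratio fell by 4.62 for T3 against T1 (SE 0.17, adjusted p = 0.0012), with a change of 0.52 in the member that was not called. The member in all libraries, and lama2 at T1, lay near or below the added 0.5 RPKM. Both changes therefore look smaller than in RPKM alone, where the values of the member at T1 and T3 did not overlap.

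On unplaced scaffolds, TCONS_00118508 on LOC110439147 had 0.336 and 0.0573 RPKM at T1, 4.16 and 6.5 RPKM at T2 and 18 and 10.5 RPKM at T3, and its ratio rose by 3.45 for T3 against T1 (SE 0.58, adjusted p = 0.018), the largest such rise. Both T1 values of TCONS_00118508 lay below the added 0.5 RPKM and differed widely, so the size of this rise depends on the constant. A second transcript of that locus, TCONS_00118511, had 1.2 and 1.01 RPKM at T2 and 1.62 and 2.22 at T3, and its ratio rose by 1.42 for T3 against T2. TCONS_00001380 on mir15a-1 had 5.67 and 6.07, 5.99 and 6.81, and 7.95 and 7.65 RPKM, and its ratio fell by 1.13 for T3 against T2, a call lost whichever library was left out. TCONS_00104724 on LOC101884693 had 6.96 and 4.82, 1.2 and 0.666, and 0.105 and 0.0418 RPKM and fell with its partner. The most abundant member of all, TCONS_00101806 head-to-head with ch211-113a14.29, had 258 and 443 RPKM at T1, 279 and 304 RPKM at T2 and 267 and 225 RPKM at T3, against 207 and 323, 225 and 235, and 211 and 182 RPKM, and was not called. Of the remaining named members, TCONS_00088342 on the actin-binding gene dbn1 rose by 1.26 for T3 against T1 and TCONS_00035266 and TCONS_00101709 were not called.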

How the data were processed

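Whole AB embryos of 3 stages gave 6 libraries, 2 for each stage, and 0 value columns lacked a sample. Per the labels and the paper, the authors aligned reads to GRCz11 with STAR, counted them with featureCounts and deposited RPKM values per gene and per lncRNA. The assembly of the TCONS transcripts and the strand setting of counting are not given in the sources used here. Exons and strands came from the deposited tables, and biotypes from RefSeq symbols.

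Stages were compared in pairs by limma 3.58.1 (lmFit, contrasts.fit, eBayes with trend and robust, statmod 1.5.0, R 4.3.3) on log2(RPKM + 0.5), over features of at least 0.1 RPKM in at least 2 of the 4 libraries, separately for all lncRNAs, all mRNAs and all lncRNA and mRNA pairs (log2 ratio per library). Benjamini-Hochberg adjustment ran over each whole table. A non-member was paired with its nearest mRNA. An exact permutation test of 2 against 2 libraries cannot go below p = 0.333 and was not used. Reads were recovered from RPKM, length and depth. The scripts were tested on simulated data. Tables and plots used Python 3.11.15, numpy 2.4.6, pandas 2.3.3 and matplotlib 3.10.9.

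Named members were, per comparison, the 4 largest and 4 smallest changes, up to 4 pairs called together or oppositely and up to 4 ratio calls, above 1 RPKM in the higher stage and 1 per locus, then the 6 most abundant, the 6 with at least 90% overlap on the most abundant mRNAs, and up to 3 per list of partner genes. Members and lists were chosen with earlier results of these data known. Alternatives changed the pseudocount, filter, scaling, threshold, libraries, replicate block, overlap and unit counted.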

Additional observations from a re-analysis of the deposited data

How the results depend on the processing

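Triplets of values give T2 against T1 first, then T3 against T2, and last T3 against T1: 120, 43 and 217 members were called, 21, 13 and 51 ratios, and 93, 28 and 180 pairs in the same direction. A pseudocount of 1 gave 75, 19 and 144 members and 57, 14 and 106 pairs. Counting only members with at least 50% of their bases on antisense mRNA exons, which leaves fewer transcripts, gave 56, 12 and 98 members, 8, 1 and 22 ratios, and 45, 12 and 90 pairs. An unadjusted p gave 36 ratios for T2 against T1. For T3 against T2, 1 transcript per locus gave 6 ratios and a fit of all 6 libraries gave 3. Leaving out 1 library gave 0 to 193, 8 to 53 and 19 to 267 members, 0 to 58, 6 to 17 and 1 to 82 ratios, and 0 to 131, 8 to 31 and 14 to 207 pairs. In those fits the lone library of a stage is assumed to vary like the others, and the low counts came without a T2 library for T2 against T1 and without a T3 library otherwise, except that 6 ratios for T3 against T2 also came without the first T2 library. The alternatives gave 0 pairs called in opposite directions, which for T2 against T1 without a T2 library says nothing, since no member was called there. The replicate numbers do not pair the libraries, since the differences within stages correlated with r of 0.0109, -0.0518 and -0.0683 over 11894 genes. With the replicate block 90, 44 and 216 members, 27, 12 and 60 ratios, and 69, 28 and 180 pairs were called. Library medians lay between -0.0858 and 0.0689 on the log2 scale. Named members kept every call under median centring and quantile normalization. Members with few reads limit the precision, and the strand of counting was not tested.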
